A study of Mus musculus with 2 samples.

Results

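The genes of the Menin, trithorax and Polycomb complexes were compared between Menin KO and Menin WT CD4 T cells of the mouse. They were taken as the non-control probes whose RefSeq transcript belongs to 1 of 42 listed genes, and 41 of these had a named probe, out of 13510 named genes with a usable value. Setd1b, which encodes the catalytic subunit of a SET1 complex, had no named probe and was left out. Total RNA was measured on 1 array of Menin KO cells and 1 array of Menin WT cells, both titled TH. Per the labels, the source of both was spleen from female mice of strain C57BL/6J. CD4+CD62L+ naive cells were activated for 2 days with anti-TCR-β (3 μg/ml) and anti-CD28 (1 μg/ml) antibodies and IL-2 (2.5 ng/ml), then grown for a further 3 days with IL-2 alone. Age, the number of mice behind each array, and the allele or Cre line used to delete Men1 are not given in the sources used here. Whether the deletion began in all T cells or in CD4 cells alone is therefore not known here either.

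Trithorax and Polycomb proteins are opposing regulators that keep genes active or silent through cell divisions. Trithorax-type complexes place the H3K4 methyl mark on histone H3 at active promoters and enhancers, and menin, the product of Men1, tethers the MLL1 and MLL2 versions of these complexes to chromatin. Polycomb repressive complex PRC2 places the H3K27 methyl mark, PRC1 ubiquitinates histone H2A, and in T cells both help to hold lineage-foreign and cytokine genes silent.

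With 1 array a group there is no replicate, so nothing was tested and no p-value is given. Values are the scanner's processed signal, in arbitrary units, and a log2 difference, KO minus WT, after each array was scaled to its 75th percentile. A gene was counted as changed in size only when it lay at least 2-fold apart. Probes printed on many spots gave a technical SD of the log2 difference of 0.31 at signals under 100 (36 probes), 0.073 from 100 to 1000 (41 probes) and 0.038 over 1000 (69 probes). The scanner software's own error model gave a median of 0.20 for the log2 difference of a complex gene. That was wider than the technical SD at signals over 100, but narrower than the 0.31 under 100. Neither holds the spread between mice, cultures or labelling reactions, and in bulk RNA fewer cells expressing a gene and less RNA per cell cannot be told apart.

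Most complex genes lay slightly lower on the KO array. Men1 alone was at least 2-fold lower (1 of 41, or 2.44%), beside 5.14% of all named genes. None was read as at least 2-fold higher, beside 10.8% of all named genes, but Pcgf3 had only a lower bound, of 1.91-fold. After a normexp background correction those background shares were 13.2% lower and 4.72% higher, while Men1 remained the only complex gene past 2-fold. Local backgrounds over 200 occurred at 0 KO spots and 6 WT spots. With these replaced before normexp, the shares were 2.79% lower and 5.75% higher, and Men1 was again the only one. The median log2 difference of the complex genes was -0.26 (quartiles -0.48 and -0.14), and that of all named genes was -0.01 (quartiles -0.30 and 0.35). The gap between these medians was -0.26. It was -0.13 after normexp and -0.21 after normexp with those local backgrounds replaced.

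By sign alone, 35 of the 41 genes lay below 0, beside 50.5% of all named genes, and 6 lay above it, beside 49.5%. The share differed between signal classes. Over a signal of 1000, 23 of 24 complex genes and 54.1% of 6182 named genes lay below 0. From 100 to 1000 these were 12 of 15 and 52.1% of 3876, and under 100 they were 0 of 2 and 42.2% of 3452. At a limit of 1.5-fold, 8 complex genes were lower, beside 12.7% of all named genes, and 3 were higher, beside 17.3%. Those lower were Men1, Psip1, Paxip1, Ezh2, Suz12, Rnf2, Pcgf5 and Cbx7, and those higher were Ezh1, Pcgf2 and Pcgf3. Paxip1 and Suz12 sat just inside that limit, and Phc2, 1.45-fold lower, just outside it. Of the 41 differences, 18 exceeded 2 times the scanner software's error, 15 of them lower, beside 17.1% of all named genes, and 3 higher, beside 19.4%. The other 23 did not, so their direction on its own is not separated from that error.

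**Figure D1:**
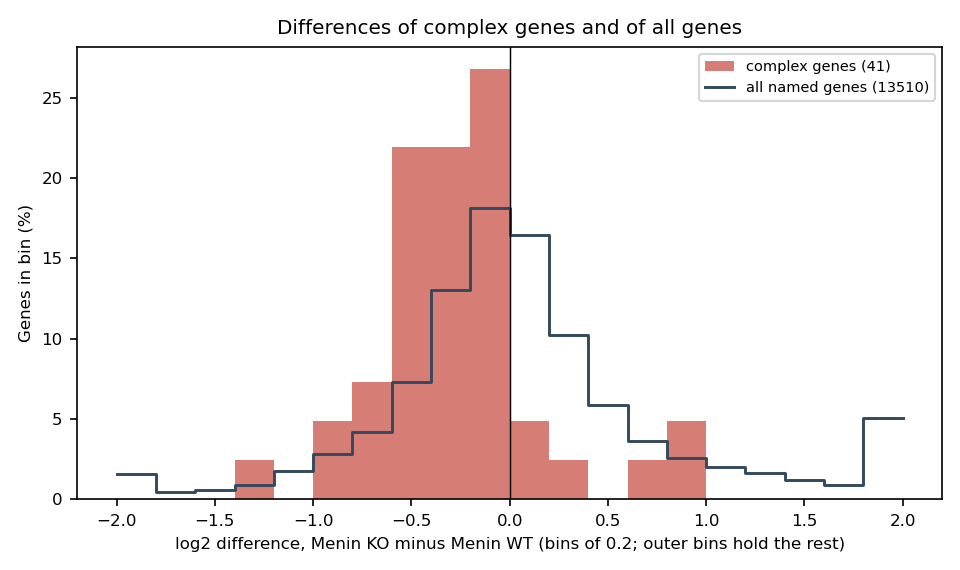
Percent of genes in each bin of log2 difference, Menin KO minus Menin WT, for the 41 complex genes (red bars) and all 13510 named genes (dark line), 1 array each; the outermost bins hold everything beyond them. The complex genes gather just left of 0, and Men1, at -1.25, is the only one drawn past 2-fold. None is drawn past a log2 difference of 1 on the right, where all genes have a long tail, but Pcgf3 is drawn at a lower bound.

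Men1 was the complex gene furthest lower in KO, and its partners Psip1 and Kmt2b differed in size. Men1 had a signal of 459 on the KO array, against 1081 on the WT array, which is 2.38-fold lower (log2 difference -1.25, scanner software's error 0.20). A single probe reads it. Its place relative to the deleted exons was not tested, so the signal left in KO is no estimate of deletion efficiency. Psip1 encodes LEDGF, the chromatin reader that binds menin and MLL together. Its signal was 6361 in KO and 10138 in WT, a log2 difference of -0.69. Kmt2b, encoding the MLL2 methyltransferase, had 2659 in KO and 2812 in WT and was nearly equal (-0.09). Kmt2a, encoding MLL1, had no named probe and was not analysed here.

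The MLL3 and MLL4 complexes, which mark enhancers and do not contain menin, had 4 of 4 genes below 0, beside 50.5% of all named genes. Kmt2c, encoding MLL3, had a signal of 4125 in KO and 5692 in WT. Its 5 probes gave log2 differences between -0.56 and -0.32, all to the same side. Kmt2d, encoding MLL4, had 136 in KO and 146 in WT (-0.12), and its other probes, both under a signal of 100, gave 0.10 and -0.42. Paxip1, encoding the adaptor PTIP, had 2074 in KO and 3093 in WT (-0.59). A second, dim Paxip1 probe read 27.8 in WT and only background in KO (8.34), which gave a bound of -1.43 in the same direction. Ncoa6, a nuclear receptor coactivator of the same complexes, had 8359 in KO and 9301 in WT (-0.17).

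Among SET1 and host cell factor genes the differences were small and of both signs. Setd1a, encoding a SET1 methyltransferase, had 3126 in KO and 3679 in WT (-0.25). Hcfc1, a docking protein shared by SET1 and menin complexes, had 1225 in KO and 1563 in WT (-0.36). Its paralogue Hcfc2 lay on the other side of 0, with 221 in KO and 188 in WT (0.22) on 1 probe, but came to -0.26 after normexp. Each of these differences lay within 2 times the scanner software's error.

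The shared core that every MLL and SET1 enzyme needs for activity was nearly level. Wdr5, the subunit that grips histone H3 and the enzyme, had 2714 in KO and 2371 in WT (0.18, and 0.40 on its second probe). Ash2l, which stimulates the enzyme, had 2417 in KO and 2604 in WT (-0.12, and 0.03 on its second probe). Rbbp5, which joins Ash2l to the enzyme, had 2059 in KO and 2447 in WT (-0.26, and -0.51 on its second probe). The brightest probes thus fell on both sides of 0. Dpy30, which binds Ash2l, had 13475 in KO and 15090 in WT (-0.18). Each of these 4 differences lay within 2 times the scanner software's error.

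The histone demethylases and the remaining methyltransferases also lay between the 2-fold limits. Kdm5a removes the H3K4 methyl mark and had 1594 in KO and 1886 in WT (-0.26). Kdm5b, of the same family, had 411 in KO and 397 in WT (0.04), and its second probe gave -0.16. Kdm6b, encoding JMJD3, removes the methyl mark that PRC2 places, and had 710 in KO and 949 in WT (-0.43). Ash1l, a methyltransferase of histone H3, had 157 in KO and 217 in WT (-0.47), with its other probes at 0.13 and -0.60. Dot1l, which methylates histone H3 within its core and is recruited in MLL leukaemia, had 382 in KO and 499 in WT (-0.40), with dimmer probes at -0.06 and -0.65.

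**Figure D2:**
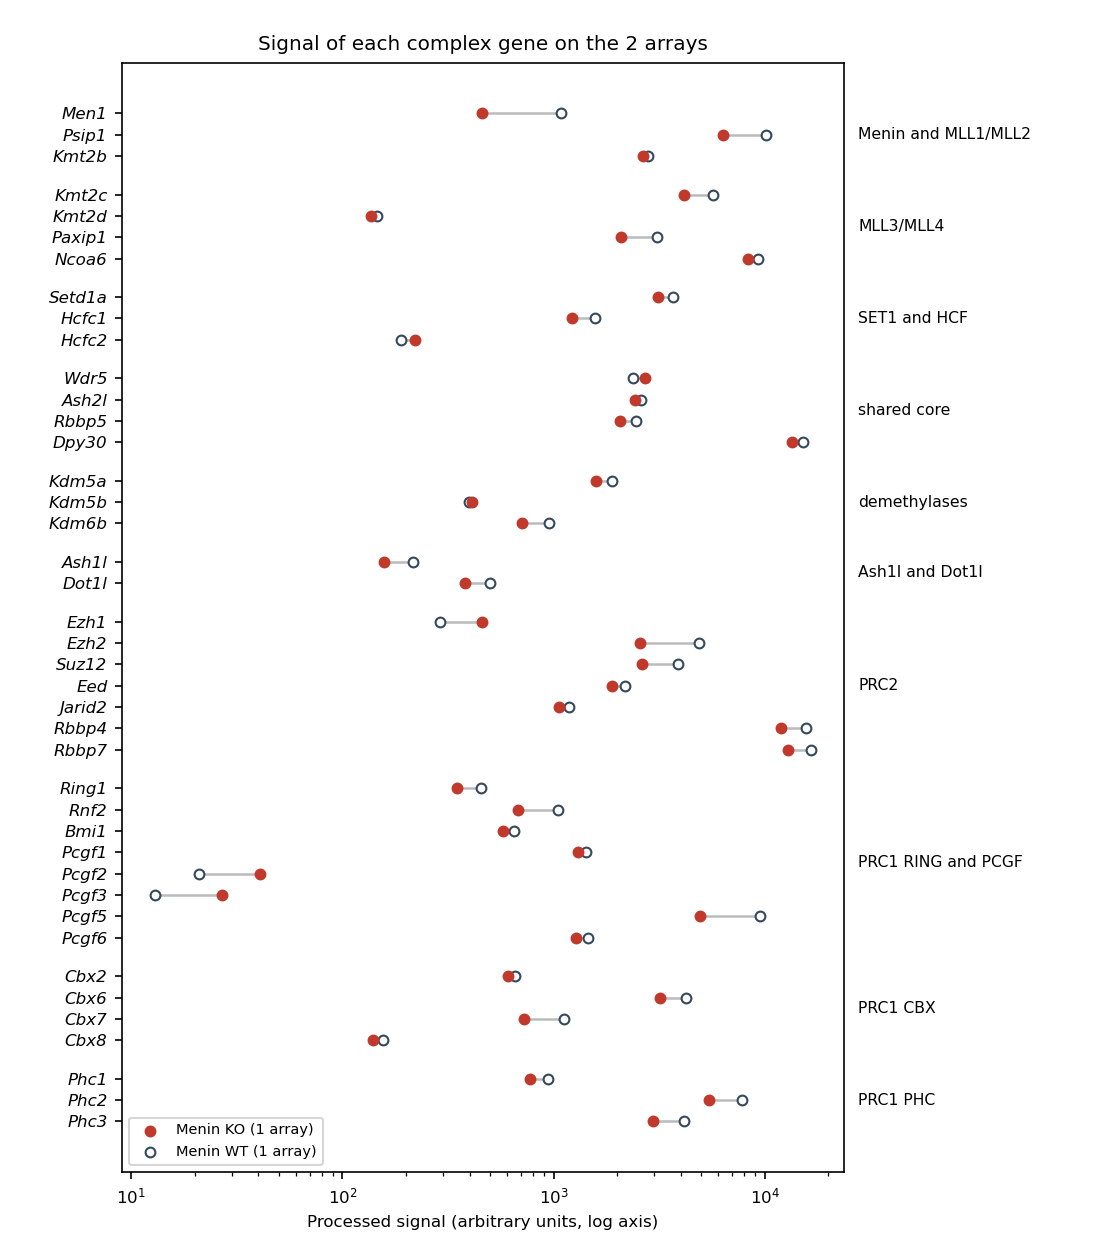
Processed signal (log axis) of each complex gene on the Menin KO array (filled red) and the Menin WT array (open), grouped by complex, 1 array a group. Men1, Ezh2 and Pcgf5 have the widest gaps with KO on the left, and Ezh1, Pcgf2 and Pcgf3 the widest with KO on the right.

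Within PRC2 the catalytic subunits went opposite ways. Ezh2, the methyltransferase of dividing cells, had a signal of 2571 in KO and 4885 in WT, 1.92-fold lower (log2 difference -0.94). Ezh1, its paralogue that persists in resting cells, had 458 in KO and 290 in WT, 1.56-fold higher (0.65). Both differences exceeded 2 times the scanner software's error, and each gene was read by 1 probe. Suz12, the scaffold without which PRC2 is unstable, had 2616 in KO and 3891 in WT (-0.59), and its second probe gave -0.58. Eed, which reads the methyl mark that PRC2 makes, had 1887 in KO and 2178 in WT (-0.22). Jarid2, which helps recruit PRC2, had 1057 in KO and 1180 in WT (-0.17), but 0.23 on its second probe. The histone chaperones Rbbp4 and Rbbp7 lay together. Rbbp4 had 11906 in KO and 15744 in WT (-0.42, with 1 of its 3 probes at -0.60). Rbbp7 had 12809.7 in KO and 16514.5 in WT (-0.38). They are close paralogues, and whether a probe of one also reads the other was not tested.

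Cell division genes lay lower on the KO array as well. Of 13 listed, Rrm2 had no named probe, and all 12 others lay below 0, beside 50.5% of all named genes. Their median log2 difference was -0.74, or -0.49 after normexp. At least 2-fold lower were 3 of them, beside 5.14% of all named genes. Ccna2, cyclin A2, had 6743 in KO and 18407 in WT (-1.46), and Top2a, the topoisomerase of dividing cells, had 2779 in KO and 7325 in WT (-1.41). Cdk1, the kinase that drives mitosis, had 2811 in KO and 5691 in WT (-1.03). The part of cell division in the PRC2 values was not tested.

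The promoters of the PRC2 genes that differed most are shown because the letters of their start regions can be set beside those values. They are RefSeq sequences of GRCm38.p6, running from 250 bases before to 50 after the annotated start and printed on the gene's strand. Capitals mark a match to the site of E2F, the factor family that switches on S phase genes.
Ezh2, chr6:47594981-47595280, minus strand: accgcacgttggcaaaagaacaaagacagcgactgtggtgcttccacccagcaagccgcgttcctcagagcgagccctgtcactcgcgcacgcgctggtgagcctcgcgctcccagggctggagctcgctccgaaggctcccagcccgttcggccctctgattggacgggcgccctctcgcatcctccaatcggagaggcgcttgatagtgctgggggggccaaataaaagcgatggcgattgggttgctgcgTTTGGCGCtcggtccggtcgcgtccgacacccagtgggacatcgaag
Suz12, chr11:79992856-79993155, plus strand: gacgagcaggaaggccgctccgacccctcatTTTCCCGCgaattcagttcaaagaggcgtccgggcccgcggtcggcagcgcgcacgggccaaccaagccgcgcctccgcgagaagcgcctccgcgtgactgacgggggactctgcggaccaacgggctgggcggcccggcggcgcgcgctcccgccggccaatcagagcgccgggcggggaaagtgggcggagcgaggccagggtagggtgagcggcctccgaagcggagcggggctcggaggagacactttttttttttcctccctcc
Ezh1, chr11:101226414-101226713, minus strand: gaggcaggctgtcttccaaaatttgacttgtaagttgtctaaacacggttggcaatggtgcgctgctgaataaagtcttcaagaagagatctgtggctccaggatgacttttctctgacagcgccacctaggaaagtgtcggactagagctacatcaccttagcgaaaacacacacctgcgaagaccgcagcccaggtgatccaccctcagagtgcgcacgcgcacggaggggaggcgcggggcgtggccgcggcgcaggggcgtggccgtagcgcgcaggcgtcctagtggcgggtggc
The letters searched were TTTCCCGC, TTTCGCGC, TTTGCCGC and TTTGGCGC, on both strands, and no match overlapped another in these 3 promoters. Ezh2 and Suz12 each held 1 match and Ezh1 held none. They were the only 2 matches among the 33 complex genes with a promoter sequence, against 2.60% of 27025 genes and 4 of 12 cell division genes. A second motif, CCAAT, was searched in the same promoters. It occurred in 39.4% of the 33 complex genes, 41.1% of the 27025 genes and 83.3% of the 12 cell division genes. A match describes letters and not binding, and the E2F motif was chosen with the differences known.

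In PRC1, the RING and PCGF genes ran from -0.96 to 0.95. The upper end is Pcgf2, at a signal under 100, and after normexp it became the lower end, at -0.82, with Pcgf1 highest at 0.03. Rnf2, encoding the main E3 ligase RING1B, had 676 in KO and 1049 in WT (-0.65, but -0.19 on its second probe). Ring1, its paralogue, had 350 in KO and 455 in WT (-0.39). The PCGF subunits decide the kind of PRC1 that forms. Of these, Pcgf5 had 4919 in KO and 9488 in WT, 1.95-fold lower (-0.96) on 1 probe. Bmi1, the PCGF subunit of canonical PRC1 that represses the Cdkn2a locus, had 576 in KO and 648 in WT (-0.18). Bmi1 thus lay nearer to 0 than Pcgf5. Pcgf1, of the variant PRC1 with Kdm2b, had 1307 in KO and 1427 in WT (-0.14), and Pcgf6, of a variant PRC1 with E2f6, had 1279.5 in KO and 1449.98 in WT (-0.19, and -0.58 on its second probe).

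Pcgf2 and Pcgf3 were the genes highest in KO, both read at a signal under 100. Pcgf2, encoding the Bmi1 paralogue MEL18, had a signal of 40.8 in KO and 20.9 in WT (0.95). Pcgf3, of a variant PRC1, had 27.0 in KO, and in WT its signal (12.9) was not well above background, so it was at least 1.91-fold higher. The technical SD at this brightness was 0.31. The Pcgf2 difference became -0.82 after normexp background correction and 0.13 when local backgrounds over 200 were replaced before it, so its direction changed with the treatment of background. Pcgf3 had no usable value under either correction.

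The CBX subunits, which read the methyl mark that PRC2 makes, were all below 0, beside 50.5% of all named genes. Cbx7 had 727 in KO and 1114 in WT (-0.63). Cbx6 had 3173 in KO and 4213 in WT (-0.42), and its 3 probes lay between -0.46 and -0.38. Cbx2 had 605 in KO and 658 in WT (-0.13), and Cbx8 had 140 in KO and 156 in WT (-0.17). These last 2 lay within 2 times the scanner software's error.

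The Polyhomeotic genes, whose products polymerise to compact chromatin, were all below 0 too, beside the same 50.5%. Phc1 had 771 in KO and 945 in WT (-0.31), Phc2 had 5441 in KO and 7808 in WT (-0.53), and Phc3 had 2966 in KO and 4135 in WT (-0.49). All 6 of their probes lay below 0.

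**Figure D3:**
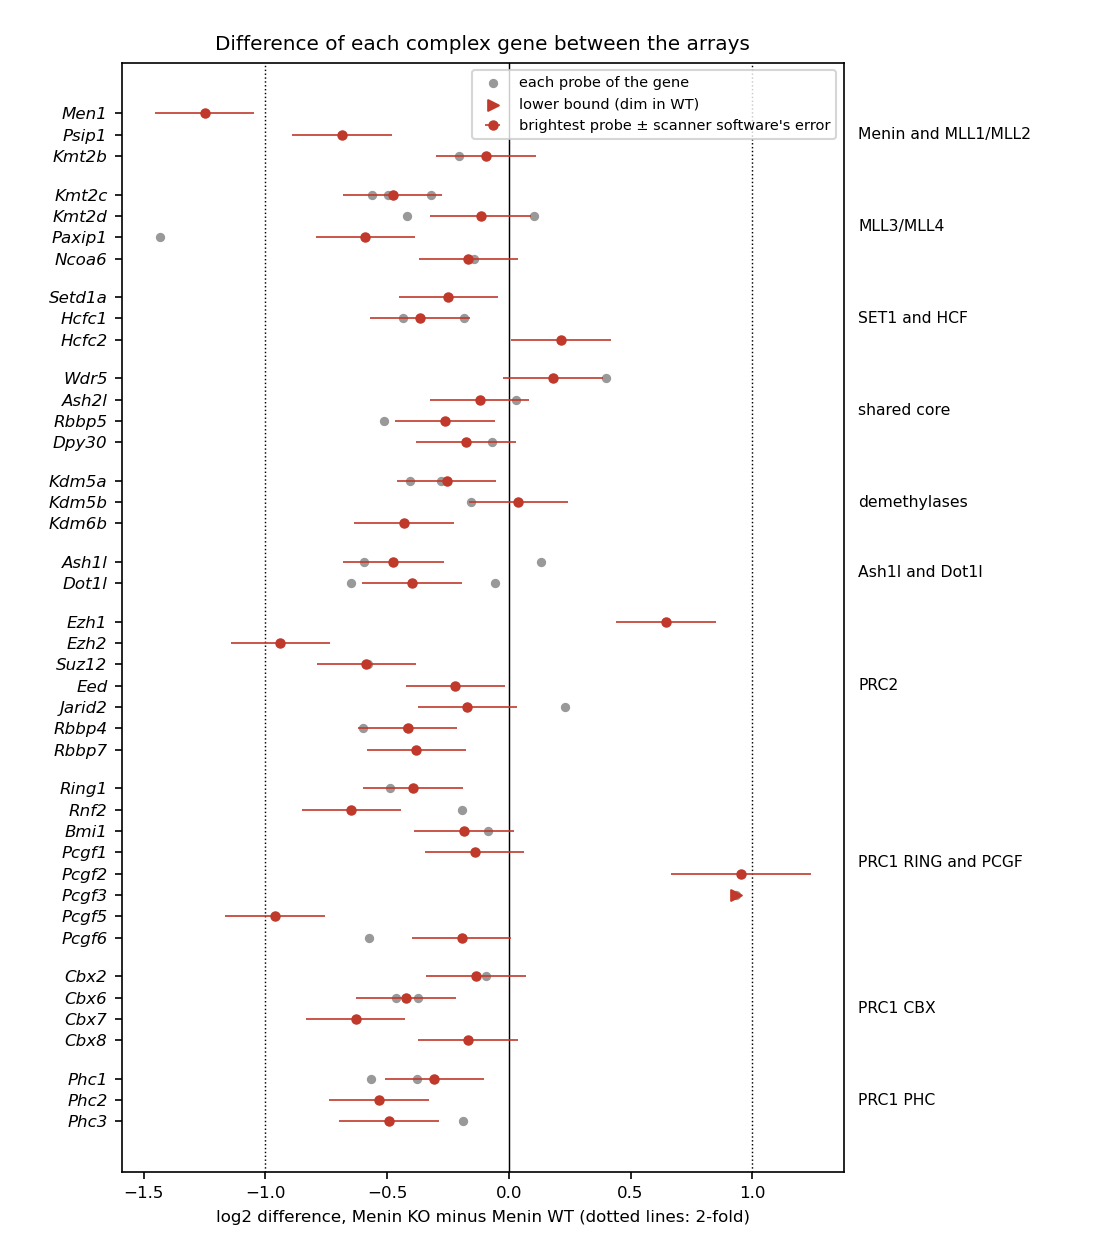
log2 difference, Menin KO minus Menin WT, of each complex gene: the brightest probe with the scanner software's error (red), the gene's other probes (grey; 1 Paxip1 probe is a bound) and a lower bound (arrow, Pcgf3), with dotted lines at 2-fold. Men1 alone lies past a dotted line with its brightest probe, at -1.25, and Ezh1, Pcgf2 and Pcgf3 stand apart on the right.

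Different probes of 1 gene gave a second look at the direction. Among the 24 genes read on both arrays by more than 1 probe, 18 had every probe below 0 and 1 (Wdr5) had every probe above 0. The other 5 had probes of both signs (Kmt2d, Ash2l, Kdm5b, Ash1l and Jarid2). By the brightest probe alone, 50.5% of all named genes lay below 0. The same count over every probe was not made for all named genes, so these numbers have no background share. The pooled SD between the probes of a gene was 0.18. Probes of a gene share the same RNA, so they check the reading and not the biology.

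By complex, the medians lay between -0.69 for Men1, Psip1 and Kmt2b and -0.15 for the shared core. The 19 trithorax-side genes had a median of -0.26, with 16 below 0. The 22 Polycomb-side genes had a median of -0.34, with 19 below 0. Of all named genes 50.5% lay below 0. The ranges of both sides overlapped. PRC2 alone had a median of -0.38 (7 genes), and all of PRC1 had -0.31 (15 genes). After normexp the shared core turned to 0.069, PRC2 lay at -0.11, the RING and PCGF genes lay at -0.43 (against -0.19 before), and Men1, Psip1 and Kmt2b lay at -0.43. With local backgrounds over 200 replaced first, these 4 medians were -0.12, -0.33, -0.20 and -0.65.

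Further genes of these pathways also lay mostly below 0, with Tasp1 and Wdr82 furthest lower. Of 48 such genes 45 had a value, while Kmt2a had no named probe and Asxl3 and Lcor were not well above background. The median log2 difference was -0.20, or -0.05 after normexp, and 37 lay below 0, beside 50.5% of all named genes. Past the 2-fold limit were 2, both lower, and 43 lay within it. Of all named genes, 5.14% were at least 2-fold lower and 10.8% at least 2-fold higher. Tasp1, encoding the protease taspase 1 that cleaves MLL1 and MLL2 into their mature form, had a signal of 809 in KO and 4173 in WT. It was 5.20-fold lower (log2 difference -2.38), and its 3 probes gave -2.59 to -2.38. Wdr82, the subunit that links SET1 complexes to RNA polymerase II, had 3575 in KO and 10462.5 in WT. It was 2.95-fold lower (-1.56), and -1.21 on its second probe. All 5 probes of these genes were past 2-fold. Their direction was kept under every alternative run. Kdm6a, the other demethylase of the PRC2 mark, had 182 in KO and 208 in WT (-0.21).

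**Figure D4:**
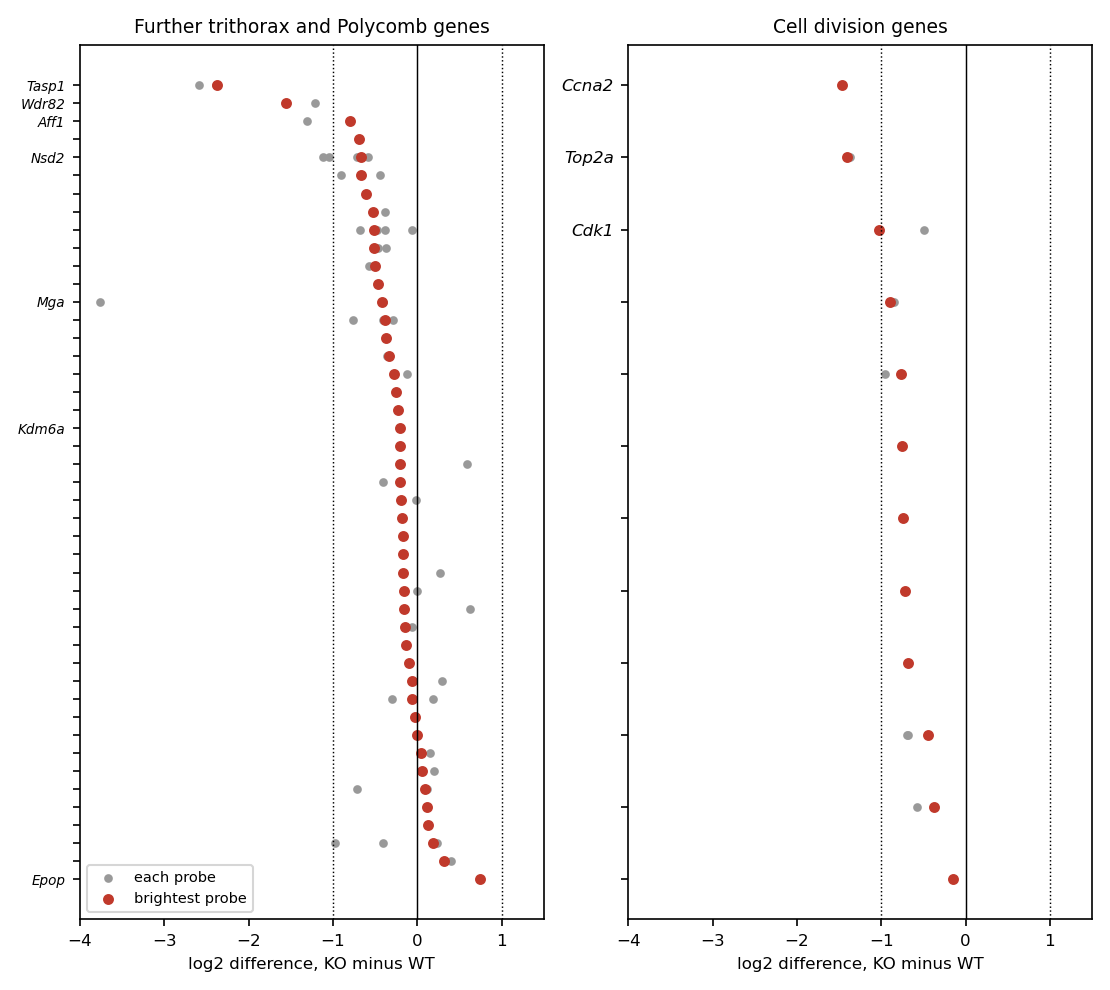
log2 difference, Menin KO minus Menin WT, of 45 further trithorax and Polycomb genes (left) and 12 cell division genes (right), sorted by value, with the brightest probe in red, other probes in grey and dotted lines at 2-fold; only genes described in the text carry a name. Tasp1 at -2.38 and Wdr82 at -1.56 stand apart from the rest on the left, and all cell division genes lie below 0.

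Of non-control spots 63.5% were well above background in KO and 59.5% in WT, and both arrays were scanned together on 1 slide. The lowest signal well above background was 10.4 in KO and 14.0 in WT. Of 7 T cell markers 6 had a probe and all 6 were well above background on both arrays, Cd4 with a signal of 279 in KO and 443 in WT. The summed signals of markers of other cells were higher in KO. Of the CD8 T cell markers Cd8a and Cd8b1, Cd8a alone had a named probe, with 3213 in KO and 312 in WT. The summed signal of the 5 natural killer cell markers was 8997 in KO and 2259 in WT. Of these 5, 3 were at least 2-fold higher, beside 10.8% of all named genes. Fcer1g alone gave 5087 of the KO sum and 669 of the WT sum. Ncr1 had only 21.7 in KO and was not well above background in WT. Of the mast cell and basophil markers 4 of 5 were read, with a sum of 623 in KO and 82.1 in WT. The 7 macrophage and monocyte markers summed to 689 in KO and 369 in WT, though 3 of them lay below 0, and 4 of 5 B cell markers to 1593 in KO and 900 in WT. The erythroid marker Alas2 was not well above background. In bulk RNA, other cells and expression of these markers by the CD4 cells themselves cannot be told apart. The part of either in the values of the complex genes was not tested. Bach2, the repressor named in the study's title, had 604 in KO and 4643 in WT (-2.96).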

How the data were processed

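Total RNA of Menin KO and Menin WT cells was measured on 1 one-colour Agilent array each; the labelled genotype sets the groups. Feature Extraction 10.7.3.1 made, per the file headers, the deposited intensity used here (the processed signal, background-subtracted and detrended within the array, not scaled between arrays) from probes annotated on mm9. The log2 values of the table the authors deposited matched log2 of that signal, less 1 offset for each array, to within 0.01 at 99.7% of probes, so scale, centring and direction are known. Their column medians were -3.90 for KO and -3.97 for WT.

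Outlier-flagged spots were left out (103 in KO, 115 in WT). Signals were divided by the 75th percentile of their array, logged to base 2 and averaged over the spots of a probe. Names came from RefSeq accessions of GRCm38.p6: of 41174 probes, 27050 had 1 symbol, 0 had several and 14124 had none. A gene took its brightest probe that passed the background test on 1 array or both. A gene passing on 1 array only got a bound, set against the detection floor of the dim array or the dim reading, whichever was higher. The technical SD used probes printed on 5 or more usable spots. No spot was saturated, and precision is limited by the number of arrays.

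The design, 1 array against 1 with no test and a 2-fold limit, the 42 genes and the other lists were chosen with earlier results of these data known. The genes named were all listed ones, further pathway genes at least 2-fold apart (at most 5 in each direction) with Kmt2a and Kdm6a, up to 3 cell division genes, Bach2 and cell type markers. Alternatives comprised normexp (offset 50, on median spot signals because the files hold no mean ones) with and without replacing local backgrounds over 200, quantile, median and loess scaling (limma 3.58.1), the authors' values, the mean over probes, filters on dim probes, kept flags and other size limits. The procedure was tested on simulated data. Some items named by this rule are not reported here.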

Additional observations from a re-analysis of the deposited data

How the results depend on the processing

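No paired analysis was possible because each genotype had 1 array, and for the same reason no replicate could be left out. Men1 stayed at least 2-fold lower in KO under all 11 alternative treatments of the values, between -1.33 and -1.02, and the number of complex genes below 0 ran from 33 to 36. The median of the complex genes lay between -0.34 (median scaling) and -0.20 (loess, normexp), and that of all named genes between -0.08 and 0.05.

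The counts past the limit were small and moved with single genes. With median scaling 3 genes were at least 2-fold lower (Ezh2, Men1 and Pcgf5), beside 6.03% of all named genes. With the mean over probes 2 were (Men1 and Paxip1), beside 5.15%. With loess 1 gene was at least 2-fold higher (Pcgf2), beside 11.6%, and with no filter on dim probes 1 (Pcgf3), beside 11.5%. A 1.5-fold limit gave 3 higher, beside 17.3%, and 8 lower, beside 12.7%. A 4-fold limit gave 0 lower, beside 1.17%.

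The technical SD pooled over all signal classes was 0.16, wider than the 0.073 from 100 to 1000 and the 0.038 over 1000. Normexp moved 7 of the 10 medians of complexes by more than that 0.16. Men1, Psip1 and Kmt2b came to -0.43, SET1 and host cell factor genes to -0.087, the shared core to 0.069 and the demethylases to -0.090. PRC2 came to -0.11, the RING and PCGF genes to -0.43 and the Polyhomeotic genes to -0.28. Local backgrounds over 200 occurred at 0 KO spots and 6 WT spots. With these replaced, no median of a complex moved by more than the pooled technical SD of 0.16. Among all genes past 2-fold, 67.8% were higher in KO, or 26.3% after normexp and 67.3% with those backgrounds replaced. Of the 41 genes 31 kept their sign under every alternative that gave them a value. Those that did not were Kmt2b, Kmt2d, Ncoa6, Hcfc2, Ash2l, Dpy30, Kdm5b, Jarid2, Pcgf1 and Pcgf2, in 7 of them under normexp alone.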

Other observations

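Values of 4 further pathway genes are given here, picked after they were seen. Mga, a subunit of a variant PRC1, had 3 probes. The brightest had a signal of 854 in KO and 1133 in WT, and another had 12.3 in KO and 165 in WT, a log2 difference of -3.76 against -0.42 and -0.41 for the other two. Nsd2, a methyltransferase of histone H3, was read by 6 probes. All lay below 0, from -1.12 to -0.58, and 2 of them were at least 2-fold lower. Aff1, a partner of MLL in leukaemic fusions, had 1505 in KO and 2590 in WT (-0.80), and its second, dim probe gave a bound of -1.31. Epop, a PRC2-associated protein, was read by 1 probe, with 7280 in KO and 4308 in WT (0.74).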
